A study of Homo sapiens with 6 samples.

Results

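Bile duct cells secrete ions and water into bile, and 9 genes that encode parts of this machinery were followed in HuCCT1, a line of human intrahepatic cholangiocarcinoma cells. The genes were chosen by symbol for their roles, with earlier results of these data known: SCTR, CFTR, ANO1, SLC4A2, SLC12A2, KCNN4, AQP1, AQP3 and AQP5. All 9 were found among the 20811 genes of the deposited table. HuCCT1/CD90+ cells had been transduced with a lentivirus carrying human THY1, the gene of CD90, under a CMV promoter with GFP, and HuCCT1/CD90- cells with the blank Lenti-CMV-GFP-2A-Puro virus, both at an MOI of 40. Both lines therefore carry a lentivirus with GFP, and each of the 2 groups is 1 transduced line, represented by 3 libraries. Whether a line is a clone or a mixed population is not given in the sources used here. The labels number the libraries as replicates without saying that they came from separate cultures, so the p-values measure the spread between these libraries.

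In the bile duct, secretin binds its receptor on the basolateral side of the cholangiocyte, cAMP rises, and chloride leaves the cell through apical channels. An anion exchanger then trades luminal chloride for bicarbonate, a basolateral cotransporter loads the cell with chloride, potassium channels hold the membrane potential that drives anions out, and water follows through aquaporins. A second route runs through extracellular ATP and calcium, which open calcium-activated chloride and potassium channels.

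RNA was read by targeted amplification, with 1 short amplicon for each gene on the Ion AmpliSeq Transcriptome panel, and the values are RPM, reads scaled to a fixed total of panel reads. RPM of different genes were not compared with each other, because their amplicons differ, and summed levels are given only to set the lines side by side. Libraries held 8587634 to 10551516 reads on genes, so 3 reads, used here as the detection floor, correspond to between 0.284 and 0.349 RPM. The panel uses PCR with no molecular identifiers, and the floor covers counting error only. THY1 had 0, 0.107 and 0 RPM in HuCCT1/CD90- and 46.6, 51.8 and 73.8 RPM in HuCCT1/CD90+, as the labels say. The HuCCT1/CD90+ mean of 57.4 RPM was about 179-fold the highest floor of HuCCT1/CD90-. All 6 cholangiocyte markers examined (KRT7, KRT19, EPCAM and SOX9 among them) exceeded the floor in at least 1 library of each line, the measure used for every marker list here, with a summed level of 6462 to 7337 RPM in HuCCT1/CD90-, against 7942 to 8835 RPM in HuCCT1/CD90+. ONECUT1 had means of 0.913 and 0.291 RPM, the second of them under the floor. Of 6 hepatocyte markers, 3 were above the floor in HuCCT1/CD90- (summed 20.5 to 23.8 RPM, ALB, TTR and CYP3A4 at 0) and 2 in HuCCT1/CD90+ (2.21 to 3.54 RPM, TTR at 0). Of 6 fibroblast markers, 6 were above it in HuCCT1/CD90- (41.8 to 64.9 RPM, none at 0) and 3 in HuCCT1/CD90+ (20.3 to 24.7 RPM, COL1A2 and COL3A1 at 0). Of 4 endothelial markers, 2 were above it in HuCCT1/CD90- (14.5 to 23.2 RPM, VWF and KDR at 0) and 3 in HuCCT1/CD90+ (0.643 to 1.63 RPM, none at 0), and of 5 leukocyte markers 2 were above it in each line (summed 61.3 to 66.4 RPM for HuCCT1/CD90-, against 84.7 to 102 RPM with PTPRC at 0 for HuCCT1/CD90+). The part of these markers in the results was not tested. In a bulk library, fewer cells that express a gene and less RNA of it per cell cannot be told apart.

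AQP3 rose and KCNN4 fell in HuCCT1/CD90+ compared to HuCCT1/CD90- cells, and the other 7 genes did not pass the test. A gene was called when limma on log2(RPM + 1), fitted on the whole table, gave an adjusted p of at most 0.05 (Benjamini-Hochberg, over all genes) and a fold change of at least 1.5. Of the 9 genes 1 was called higher and 1 lower, against 15.1% of all genes called in either direction, 7.59% higher and 7.49% lower. With the replicate number as a block AQP3 was not called (adjusted p = 0.079, limma), which left 0 genes higher and 1 lower, and the calls over all genes went from 3138 to 2102. The count is close to the share over all genes, and nothing particular to these genes is read from it. The median log2 fold change of the 9 genes was 0.13, beside 0.0 over all genes. With no limit on the fold 3 genes passed the adjusted p, 2 of them higher and 1 lower, against 18.9% of all genes, 9.41% higher and 9.52% lower. The libraries of the lines did not overlap for 3 of the 9 genes, SLC4A2, AQP3 and KCNN4, against 35.0% of all genes.

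**Figure D1:**
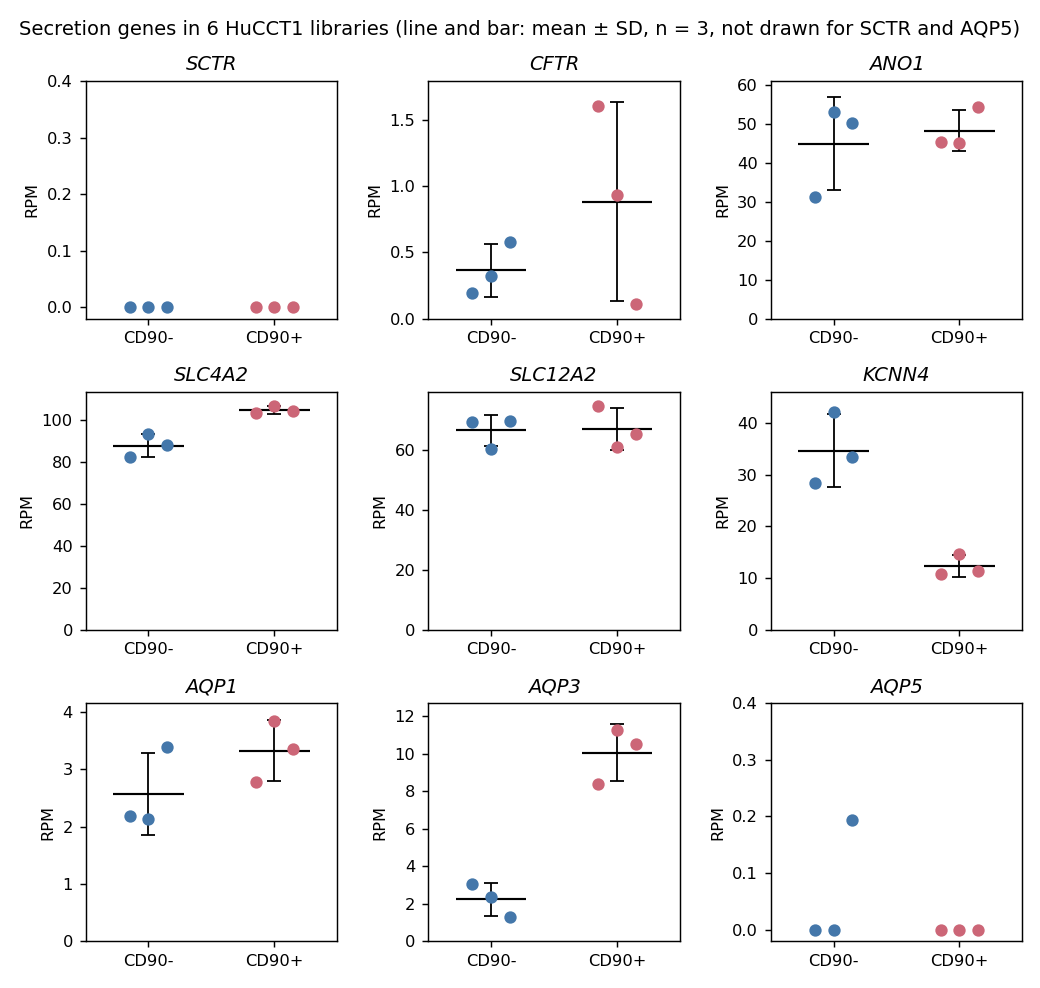
RPM of the 9 secretion genes in each library, with HuCCT1/CD90- in blue and HuCCT1/CD90+ in red, 3 libraries each, every panel on its own linear axis and lines and bars giving the mean ± SD (left out for SCTR and AQP5). AQP3 lay higher and KCNN4 lower in all 3 HuCCT1/CD90+ libraries, SLC4A2 was slightly higher, and SCTR and AQP5 were at or near 0.

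The secretin receptor gene SCTR is found on the minus strand of chromosome 2, between 119439843 and 119525301 (GRCh38, all gene positions from GENCODE 29). It had 0 reads in each of the 6 libraries, so that a level above about 0.349 RPM was not detected in any of them. The amplicon reads a single stretch of the transcript, and isoforms without it would not be counted.

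CFTR, the chloride channel of the apical membrane that cAMP activates through protein kinase A, lies on chromosome 7 from 117465784 to 117715971 on the plus strand. It was close to the floor, with 0.190, 0.321 and 0.582 RPM in HuCCT1/CD90- (2, 3 and 6 reads) and 1.61, 0.932 and 0.109 RPM in HuCCT1/CD90+ (15, 8 and 1 reads). The lines overlapped, since the highest and the lowest library were both of HuCCT1/CD90+. Its log2 fold change came to 0.39 (SE 0.36, 95% confidence interval from -0.57 to 1.35, adjusted p = 0.57). It ranged from 0.11 (without HuCCT1/CD90+ replicate 1) to 0.73 (without HuCCT1/CD90+ replicate 3) and was 1.25 with edgeR and 1.30 with DESeq2, with no call in any of these fits. Its coefficient of variation was 54.8% in HuCCT1/CD90- and 85.0% in HuCCT1/CD90+, beside 52.2% and 35.4% from counting alone. ANO1, the calcium-activated chloride channel, lies on chromosome 11 from 70078302 to 70189528 on the plus strand and was read well. It had 31.3, 53.1 and 50.3 RPM in HuCCT1/CD90- and 45.3, 44.9 and 54.3 RPM in HuCCT1/CD90+, with 330 to 518 reads in each library. The HuCCT1/CD90+ libraries lay within or just above the range of HuCCT1/CD90-, whose replicate 1 was the lowest of the 6. Its log2 fold change was 0.13 (SE 0.24, interval from -0.51 to 0.77, adjusted p = 0.87).

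SLC4A2, the chloride/bicarbonate exchanger AE2 that puts bicarbonate into bile, lies on chromosome 7 from 151057210 to 151076527 on the plus strand. It had 82.3, 93.4 and 88.1 RPM in HuCCT1/CD90- (mean 87.9 ± 5.58, SD, n = 3) and 103, 107 and 105 RPM in HuCCT1/CD90+ (mean 104.9 ± 1.74, n = 3). Every HuCCT1/CD90+ library was above every HuCCT1/CD90- library, but the mean was 1.19-fold higher, below the 1.5-fold limit. The log2 fold change of 0.25 (SE 0.051, interval from 0.12 to 0.39) had an adjusted p of 0.036, or 0.064 with the replicate number as a block, from limma, and up to 0.115 with 1 library left out. In limma it stayed at 0.037 with offsets of 0.1 or 5 RPM and was 0.071 with quantile normalization. edgeR gave 0.28 without a filter and 0.14 with one, and DESeq2 gave 0.13. In GENCODE 29 SLC4A2 overlaps CDK5 on the other strand, and CFTR (CFTR-AS1 and CTTNBP2 among others), ANO1 (ANO1-AS1), AQP1, AQP5, SCTR and SLC12A2 also overlap other annotated genes, while AQP3 and KCNN4 overlap none. Reads of overlapping genes cannot be told apart where an amplicon lies in the overlap.

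The cotransporter SLC12A2 (NKCC1), which loads the cell with chloride together with sodium and potassium, lies on chromosome 5 from 128083766 to 128189688 on the plus strand. It had 69.3, 60.3 and 69.7 RPM in HuCCT1/CD90- and 74.7, 61.02 and 65.3 RPM in HuCCT1/CD90+, and the lines overlapped. The log2 fold change was 0.010 (SE 0.10, interval from -0.26 to 0.28, adjusted p = 1.0).

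KCNN4 encodes the intermediate-conductance calcium-activated potassium channel, which recycles potassium while chloride leaves. It lies on chromosome 19 from 43766533 to 43781261 on the minus strand. It had 28.3, 42.2 and 33.5 RPM in HuCCT1/CD90- (mean 34.7 ± 6.99, SD, n = 3) and 10.8, 14.7 and 11.4 RPM in HuCCT1/CD90+ (mean 12.3 ± 2.08, n = 3). The lowest HuCCT1/CD90- library was above the highest HuCCT1/CD90+ library, and the mean was 2.82-fold lower in HuCCT1/CD90+. On the log2 scale the change was -1.42 (SE 0.19, interval from -1.93 to -0.90, adjusted p = 0.013), and the fall was also called with the replicate number as a block (adjusted p = 0.017, limma). In the library pairs of numbers 1, 2 and 3 the RPM of HuCCT1/CD90- exceeded that of HuCCT1/CD90+ by 2.62-, 2.87- and 2.94-fold. Without HuCCT1/CD90- replicate 3, HuCCT1/CD90+ replicate 1 or HuCCT1/CD90+ replicate 3 its adjusted p was 0.055, 0.053 and 0.060 (limma), with log2 fold changes of -1.43, -1.34 and -1.37.

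AQP3 encodes a water channel that also passes glycerol. It lies on chromosome 9 from 33441154 to 33447633 on the minus strand. It had 3.03, 2.35 and 1.26 RPM in HuCCT1/CD90- (13 to 32 reads, mean 2.22 ± 0.894, SD, n = 3) and 8.36, 11.3 and 10.5 RPM in HuCCT1/CD90+ (78 to 97 reads, mean 10.1 ± 1.52, n = 3). All HuCCT1/CD90+ libraries were above all HuCCT1/CD90- libraries, and the mean was 4.54-fold higher. The log2 fold change was 1.81 (SE 0.26, interval from 1.12 to 2.50, adjusted p = 0.015), the largest of the 9 genes. The rise was 2.76-, 4.80- and 8.35-fold in the library pairs of numbers 1, 2 and 3, and with the replicate number as a block the adjusted p was 0.079 (limma). Without HuCCT1/CD90- replicate 2, HuCCT1/CD90+ replicate 2 or HuCCT1/CD90+ replicate 3 it was 0.053, 0.059 and 0.065 (limma), with log2 fold changes of 1.86, 1.73 and 1.78.

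The other water channels did not pass the test. AQP1, the classical water channel of the bile duct, lies on chromosome 7 from 30911694 to 30925516 on the plus strand, and had 2.18, 2.14 and 3.40 RPM in HuCCT1/CD90- and 2.79, 3.84 and 3.36 RPM in HuCCT1/CD90+ (20 to 35 reads). The lines overlapped through HuCCT1/CD90- replicate 3, and the log2 fold change was 0.29 (SE 0.18, interval from -0.19 to 0.77, adjusted p = 0.39). AQP5, a water channel of secretory glands, lies on chromosome 12 from 49961870 to 49965681 on the plus strand. It had 2 reads in HuCCT1/CD90- replicate 3 and 0 in the other 5 libraries, so both lines were at the floor and no fold is given. Of 11 further aquaporin genes none was called, and 4 had no reads in any library. Only AQP11 exceeded 3 reads in a library, with at most 16 reads, and it is named here, after its reads were seen, because it passed the floor. At an unadjusted p of at most 0.05 and a fold of 1.5 limma called 0 of the 11, against 20.1% of all genes (10.1% higher, 9.98% lower). However, a gene with 3 reads or fewer in every library cannot reach 1.5-fold on log2(RPM + 1). The limma count was thus fixed in advance for all but AQP11, and nothing is read from it. edgeR and DESeq2 also called 0, while with an offset of 0.1 RPM limma called 1 lower.

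**Figure D2:**
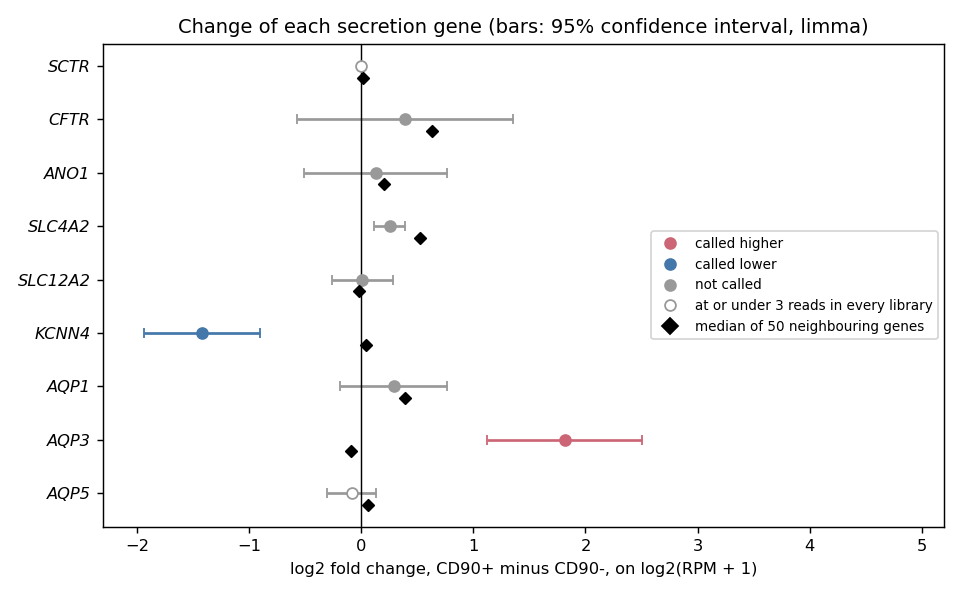
Log2 fold change of each secretion gene between HuCCT1/CD90+ and HuCCT1/CD90-, on log2(RPM + 1), with the 95% confidence interval from limma, and in black diamonds the median log2 fold change of 50 neighbouring genes on the chromosome, those closest to it that averaged 10 RPM or more. KCNN4 at -1.42 and AQP3 at 1.81 lie far from the medians of their neighbours, at 0.044 and -0.090, and the place of CFTR against its neighbours depends on the offset of 1 RPM.

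Of the 9 genes 3, CFTR, SLC4A2 and AQP1, lie on chromosome 7, where the 376 genes averaging 10 RPM or more had a median log2 fold change of 0.55. The 50 nearest such genes had a median of 0.63 around CFTR, 0.52 around SLC4A2 and 0.39 around AQP1, beside 0.39, 0.25 and 0.29 for the genes themselves. For CFTR this order depends on the scale, since its change was 0.72 with an offset of 0.1 RPM, 1.25 with edgeR and 1.30 with DESeq2. When the median of the neighbours was divided out of the HuCCT1/CD90+ values, the log2 fold change of SLC4A2 turned to -0.26 (adjusted p = 0.036, limma, again under the fold limit), that of AQP1 was -0.0022 and that of CFTR 0.16 (adjusted p = 1.0 and 0.85). The neighbours of AQP3 and KCNN4 had medians of -0.090 and 0.044, and with these divided out the log2 fold changes were 1.89 and -1.46 (adjusted p = 0.014 and 0.013, limma). The part of the chromosome in the values of CFTR, SLC4A2 and AQP1 was not tested beyond this.

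The promoters of AQP3 and KCNN4 are shown because these were the members called in the main fit, AQP3 not with the replicate block. Each run holds the 250 bases before the RefSeq start of the gene (GRCh38.p14), written 5′ to 3′ on the strand of the gene, chr9:33447594-33447843 for AQP3 and chr19:43780974-43781223 for KCNN4, both on the minus strand. These RefSeq starts lie inside the genes as GENCODE 29 draws them, so the KCNN4 run falls wholly and the AQP3 run partly within the gene positions given above. Capitals mark matches on either strand to the motifs searched, which were the E-box CAGGTG, the GC box GGGCGG, the cAMP response core TGACGT, the AP-1 site TGANTCA and the TATA box TATAAA.
AQP3: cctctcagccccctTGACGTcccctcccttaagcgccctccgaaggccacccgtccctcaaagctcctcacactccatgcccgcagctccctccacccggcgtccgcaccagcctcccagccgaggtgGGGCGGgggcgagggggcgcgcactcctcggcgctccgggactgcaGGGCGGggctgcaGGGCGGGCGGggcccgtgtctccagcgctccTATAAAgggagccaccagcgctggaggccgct
KCNN4: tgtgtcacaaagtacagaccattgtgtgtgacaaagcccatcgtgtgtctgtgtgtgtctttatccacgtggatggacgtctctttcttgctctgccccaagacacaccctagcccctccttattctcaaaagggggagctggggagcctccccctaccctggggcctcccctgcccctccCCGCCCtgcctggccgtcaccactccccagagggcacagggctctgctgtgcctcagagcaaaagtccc
The AQP3 run held 4 GC boxes, of which the last 2 overlap, 1 cAMP response core whose first base lies 236 bases before the start, and 1 TATA box 32 bases before it. The KCNN4 run held 1 GC box on the opposite strand. Among 35116 promoter windows of the same length, 42.6% held the GC box, 7.10% the cAMP response core, 10.7% the TATA box, 17.5% the E-box and 6.57% the AP-1 site. The AQP3 run was 73.6% G and C with a ratio of observed to expected CpG of 0.693, and that of KCNN4 60.0% with 0.231, beside medians of 58.0% and 0.558 over all windows. In none of the 12 windows of the 9 genes was the E-box or the AP-1 site found. A match of letters is a description and does not show that a factor binds there.

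The 5 genes whose pattern over the 6 libraries was most like that of AQP3, by Pearson's r on log2(RPM + 1) over 8794 candidates averaging 10 RPM or more, were ADIPOR2, PDAP1, RAB1B, CHID1 and PPP1CA, with r from 0.993 to 0.995. As 310 genes reached an r of at least 0.95 and the points fall into the 2 lines, the likeness is a description of the difference between the lines as much as of these genes. The log2 fold changes of the 5 genes were 0.54, 0.98, 0.42, 0.72 and 0.30 in that order, all below that of AQP3.

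Other genes of the secretion pathway were taken in lists by function, 200 genes in all. Of these, 24 were called higher and 16 lower in HuCCT1/CD90+, 40 of 200 together, beside 15.1% of all genes in the table and 24.1% of the 12062 genes averaging 1 RPM or more. Blocking on the replicate number gave 15 called higher and 17 lower. The count called higher was 13 without HuCCT1/CD90- replicate 1, 15 without HuCCT1/CD90- replicate 2, 14 without HuCCT1/CD90+ replicate 3 and 16 or 17 without one of the others, so no excess of rises over falls is read from these counts. The genes named in each list are the largest rises and falls among those called that averaged 1 RPM or more. Other called genes are named after their calls were seen, without RPM or fold changes, and some with the adjusted p of the block.

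**Figure D3:**
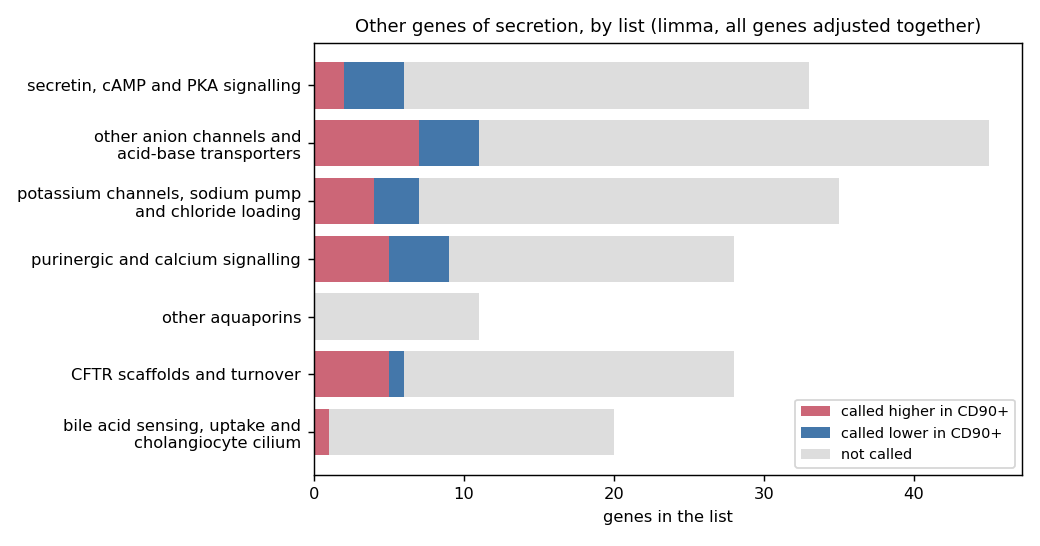
Number of genes in each list of other secretion genes, split into those called higher in HuCCT1/CD90+ (red), called lower (blue) and not called (grey). Both directions occurred in 5 of the 7 lists, no further aquaporin was called, and 1 gene was called among the bile acid and cilium genes.

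Among 33 genes of secretin, cAMP and protein kinase A signalling, 2 were called higher and 4 lower, with a median log2 fold change of -0.056, and -0.38 over the 19 genes averaging 1 RPM or more (-0.0086 over all such genes). The largest falls were those of PDE4D and PDE4B, phosphodiesterases that break down cAMP. PDE4D fell from 32.7 ± 3.60 to 2.13 ± 0.387 RPM (SD, n = 3 each), 15.3-fold lower, with a log2 fold change of -3.43 (SE 0.13, adjusted p = 0.00055 from limma). PDE4B fell from 37.0 ± 7.33 to 4.25 ± 0.869 RPM, 8.70-fold lower (log2 fold change -2.85, adjusted p = 0.0027), and its neighbours on chromosome 1 had a median of -0.28. ADCY3, an adenylyl cyclase that makes cAMP, rose from 20.2 ± 0.996 to 33.9 ± 4.92 RPM, 1.68-fold (adjusted p = 0.021, or 0.096 with the replicate number as a block, limma). Without any one of HuCCT1/CD90+ replicate 1 or the 3 HuCCT1/CD90- libraries ADCY3 was not called, with adjusted p-values from 0.060 to 0.077, and 1 gene of the list was then called higher. The block also left 1 gene called higher. VIPR1, which encodes a receptor for vasoactive intestinal peptide, and PRKACB, a catalytic subunit of protein kinase A, were also called lower, and ADCY5 higher.

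Among 45 other anion channels and acid-base transporters, 7 were called higher and 4 lower, with a median log2 fold change of -0.027, and -0.15 over the 24 at that level. SLC9A2, a sodium/proton exchanger, had 0.284, 0.107 and 0.0970 RPM in HuCCT1/CD90-, all at or under the floor. HuCCT1/CD90+ had 11.1, 11.9 and 15.5 RPM, with a mean at least 40.02-fold higher (adjusted p = 0.00073, limma). ANO9, of the same family as ANO1, rose from 0.459 ± 0.131 to 8.42 ± 2.23 RPM (log2 fold change 2.66, SE 0.21, adjusted p = 0.0033). CA12 and CA9 encode carbonic anhydrases of the cell membrane, which interconvert carbon dioxide and bicarbonate. CA12 fell from 26.4 ± 9.27 to 0.881 ± 0.272 RPM, 30.01-fold lower (log2 fold change -3.82, adjusted p = 0.0034), and CA9 from 50.5 ± 7.86 to 12.1 ± 1.60 RPM, 4.19-fold lower (adjusted p = 0.0031). ANO2, CLCN2, SLC4A3, SLC4A11 and CA2 were also called higher, and SLC26A6 and SLC9A4 lower. Blocking on the replicate number ended the calls of CLCN2, CA2 and SLC26A6 (adjusted p = 0.14, 0.082 and 0.086, limma). Leaving out HuCCT1/CD90+ replicate 2, HuCCT1/CD90+ replicate 3, HuCCT1/CD90- replicate 1 or HuCCT1/CD90- replicate 3 left 4 genes called higher, and leaving out HuCCT1/CD90+ replicate 1 left 2 called lower.

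Among 35 genes of potassium channels, the sodium pump and chloride loading, 4 were called higher and 3 lower, with a median log2 fold change of 0.0080, and 0.060 over the 18 averaging 1 RPM or more. KCNJ15, an inwardly rectifying potassium channel, fell from 88.7 ± 16.3 to 11.2 ± 0.910 RPM (SD, n = 3 each), 7.94-fold lower (log2 fold change -2.87, SE 0.16, adjusted p = 0.0015 from limma). KCNN2, a small-conductance relative of KCNN4, had 1.80, 1.71 and 2.62 RPM in HuCCT1/CD90- and no read in any library of HuCCT1/CD90+. This puts its mean at least 5.85-fold lower (adjusted p = 0.0031). SLC12A7, a potassium-chloride cotransporter that carries chloride out of the cell, rose from 5.66 ± 2.39 to 45.0 ± 5.28 RPM (a 7.94-fold rise, log2 fold change 2.84, adjusted p = 0.0067). KCNMB4 and KCNK5 were also called higher, the latter not with the block (adjusted p = 0.061, limma).

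**Figure D4:**
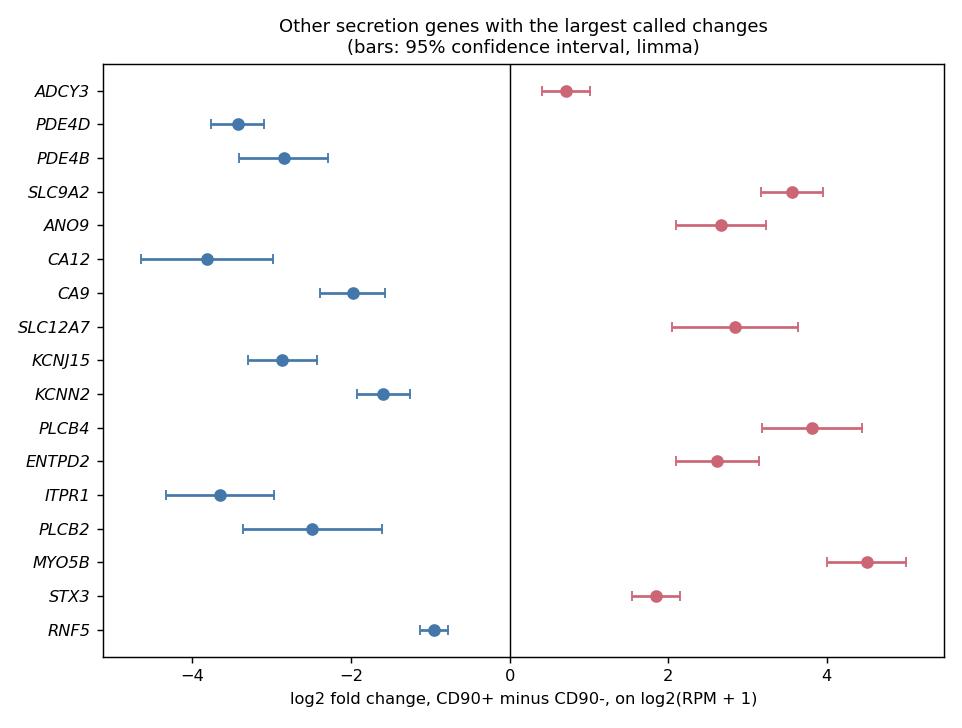
Log2 fold change on log2(RPM + 1) of genes named with values of the other secretion lists, in the order of the lists, with 95% confidence intervals from limma, red for genes called higher in HuCCT1/CD90+ and blue for genes called lower. MYO5B, at 4.50, had the largest rise of the genes drawn and CA12, at -3.82, the largest fall, and for SLC9A2 and KCNN2, with a line at the floor, the fitted value depends on the offset of 1 RPM.

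Among 28 genes of purinergic and calcium signalling, 5 were called higher and 4 lower, with a median log2 fold change of 0.0, and -0.088 over the 21 averaging 1 RPM or more. PLCB4, a phospholipase C that makes inositol trisphosphate, rose from 0.887 ± 0.329 to 25.8 ± 6.77 RPM (SD, n = 3 each; log2 fold change 3.81, SE 0.24, adjusted p = 0.0018 from limma). PLCB2, of the same family, fell from 6.94 ± 2.23 to 0.411 ± 0.358 RPM, 16.9-fold lower (log2 fold change -2.48, adjusted p = 0.012, or 0.068 with the block). Its HuCCT1/CD90+ libraries had 0, 0.582 and 0.651 RPM, close to the floor, so the size of this fold is uncertain. ITPR1, a receptor that releases calcium in response to inositol trisphosphate, fell from 29.1 ± 8.30 to 1.33 ± 0.231 RPM, 21.8-fold lower (adjusted p = 0.0023). ENTPD2, an enzyme that removes extracellular ATP, had 0.190, 0.214 and 0.485 RPM in HuCCT1/CD90-, below the floor in 2 of 3 libraries, and rose to 7.05 ± 1.77 RPM (log2 fold change 2.62, adjusted p = 0.0028). P2RY2, the ATP receptor, P2RX4 and NT5E were also called higher, and CHRM3 and PLCB1 lower. Blocked on the replicate number 3 were called higher, without P2RY2 and NT5E (adjusted p = 0.10 for each, limma), and with any 1 of the 6 libraries left out 2 or 3, the lower count without HuCCT1/CD90+ replicate 3 or HuCCT1/CD90- replicate 1.

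Among 28 genes of CFTR scaffolds, trafficking and turnover, 5 were called higher and 1 lower, with a median log2 fold change of 0.24. MYO5B, a motor of apical recycling vesicles, rose from 0.977 ± 0.384 to 43.4 ± 5.12 RPM (SD, n = 3 each), 44.4-fold higher (log2 fold change 4.50, SE 0.19, adjusted p = 0.00075 from limma). STX3, a syntaxin of the apical membrane, rose from 19.1 ± 2.76 to 71.0 ± 3.27 RPM, 3.71-fold higher (adjusted p = 0.0018). RNF5, a ubiquitin ligase of the endoplasmic reticulum that acts on CFTR, fell from 34.5 ± 1.78 to 17.3 ± 1.24 RPM, 1.99-fold lower (log2 fold change -0.96, adjusted p = 0.0023), and its neighbours on chromosome 6 had a median of -0.33. RDX, STX1A and MYO6 were also called higher. With the block 3 were called higher, without RDX and STX1A (adjusted p = 0.15 and 0.069, limma), and with 1 library left out 2 (without HuCCT1/CD90+ replicate 1, HuCCT1/CD90- replicate 1 or HuCCT1/CD90- replicate 2), 3 (without HuCCT1/CD90+ replicate 2 or 3) or 4 (without HuCCT1/CD90- replicate 3).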

How the data were processed

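Reverse-transcribed total RNA of 6 HuCCT1 libraries was amplified with primers of the Ion AmpliSeq Transcriptome panel, and the authors used the ampliSeqRNA plugin to count reads (Torrent Suite 5.16.1). They deposited RPM values without a filter. The submitters' processing notes name hg19 and the Transcriptome Analysis Console, while the positions of amplicons were not used here. Gene positions come from GENCODE 29 on GRCh38.

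RPM values were whole multiples of 1 read in 100.0% of cases (within 0.01 reads), so whole reads were recovered. A chi-square test separated all pairs of libraries of a line (statistic per degree of freedom from 9.77 to 27.1, against counting error only). limma 3.58.1 in R 4.3.3 (lmFit and eBayes, default settings, no block) was run on log2(RPM + 1) over all 20811 genes. The study's methods name limma, a p of 0.05 and a 1.5-fold limit, and here the adjusted p was used. Fold changes on this scale understate changes of low genes. Deviations of same-numbered libraries from the line means correlated with r from 0.18 to 0.32 and those of other pairs from -0.29 to 0.071. The numbers were taken to pair libraries from this check alone. Deviations from a line mean are tied to each other, so these correlations are not independent. The main fit, the fits without 1 library, edgeR and DESeq2 do not use this pairing.

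The members, lists and the rule for named genes (all members, up to 2 rises and 2 falls per list among called genes averaging 1 RPM or more, and the 5 genes most like the most changed member) were chosen with earlier results of these data known. The 20 alternatives included edgeR 4.0.16 and DESeq2 1.42.0 on recovered reads. Some genes of the lists are counted but not reported here by name.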

Additional observations from a re-analysis of the deposited data

How the results depend on the processing

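Of 135 refits over 20 alternatives of the 7 secretion genes above the floor (without SCTR and AQP5), 120 kept direction and side of the limits, 7 lost a call, 8 changed sign and none gained a call. The cause was not tested. AQP3 was not called with the replicate block (adjusted p = 0.079, limma), which in this balanced design cannot move its log2 fold change of 1.81, and 0 of the 9 genes were then called higher. AQP3 ranged from 1.58 to 2.00 without 1 library. KCNN4 ranged from -1.55 to -1.27 without 1 library. The count of members called ranged from 0 to 1 in each direction without 1 library, and with only genes of at least 10 RPM it was 0 higher, since AQP3 was then not tested. edgeR and DESeq2 called both genes, with adjusted p-values of at most 9.6e-06 for AQP3 and 5.7e-06 for KCNN4.

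Sign changes concerned genes that were not called. With the neighbours divided out SLC4A2 was at -0.26, AQP1 at -0.0022 and ANO1 at -0.065. SLC12A2 was at -0.017 with quantile normalization and -0.016 with median centring, and ranged from -0.070 to 0.074 without 1 library, as ANO1 did from -0.10 to 0.27. DESeq2 gave no adjusted p for AQP5, and SCTR could not be fitted there. Over all genes 3138 were called, but 1874 at a fold of 2, 1868 without HuCCT1/CD90+ replicate 3 and 2083 without HuCCT1/CD90- replicate 3. Of 354 refits of 18 genes picked by the rule from the other lists, 9 lost a call and none changed sign. CFTR, AQP1, AQP5 and SCTR had at most 35 reads in a library.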

Other observations

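Genes for sensing and taking up bile acids and for the primary cilium of cholangiocytes, 20 in all, were looked at as a last list. One was called higher and none lower by limma, against 15.1% of all genes called, and the median log2 fold change was 0.0, or -0.26 over the 10 genes averaging 1 RPM or more (-0.0086 over all such genes). Both counts depended on the settings. At an unadjusted p of at most 0.05, and likewise with edgeR and DESeq2, 3 genes were called lower, and the count of genes called higher was 0 or 1. The gene called was PKHD1, which encodes fibrocystin, a protein of the cilium, and it is named because it was the single call. It was at the floor in HuCCT1/CD90- and had a mean of 1.71 RPM in HuCCT1/CD90+, at least 5.32-fold higher, with an adjusted p of 0.022 (limma). Blocking on the replicate number gave an adjusted p of 0.11, and 3 other genes of the list were then called lower. Without any library other than HuCCT1/CD90+ replicate 1 no gene of the list was called higher.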
